A study of Daphnia magna with 15 samples.

Results

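The 3 salinity libraries of the water flea Daphnia magna, with the titles 41.S4, 48.S13 and 51.S20 were compared with the 3 control libraries, titled 3.S1, 7.S10 and 9.S17. These 6 of the 15 libraries of the series were chosen by their titles: all libraries labelled control, and the third trio of salinity libraries in the order of title numbers. The other 9 libraries are also labelled salinity. Every library held genomic DNA of adult females. The control cultures were founded at 0 g/L NaCl and the salinity cultures at 4.1 g/L NaCl, with 3 cultures of each kind kept at 20 °C under 16 h of light and 8 h of darkness. Exposure ended with the third brood of the founders. The generations that followed, up to generation 4, lived in control medium. The labels do not say which generation or culture a salinity library comes from, nor name a clone, so the trio is called by its titles, and its animals may have been exposed themselves or descend from exposed animals.

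Daphnia reproduce clonally for most of their life, and their genomes, like those of many arthropods, carry little DNA methylation. In this genus methylation is known to sit mainly at CpG sites within the bodies of a minority of genes, is written and kept by DNA methyltransferases, and is studied as a possible carrier of the effects of an ancestor's environment. The series compares daphnids exposed and not exposed to salt, and its title speaks of a loss of methylation passed on to later generations.

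DNA was cut with MspI, an enzyme that cuts at CCGG, and treated with bisulfite, after which unmethylated cytosines are read as thymine. The tables give, for each gene model (a predicted mRNA), how many cytosine calls were made and how many of them were methylated. The level of a gene model is the second number as a percentage of the first. Of 25047 gene models listed in at least 1 of the 6 libraries, 2719 were listed in all 6 and 2037 (8.13%) had 10 or more calls in all 6. The results below rest on these 2037 unless another set is named. They held 290851 to 344148 calls per library, 10.01% to 14.6% of the library, with a median of 67 to 77 calls per gene model. Files and reference table do not pair the identifiers with gene names, so no role can be given for any gene model.

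The tables hold almost no small methylated counts other than 0. The lowest common methylated count, the first that made up at least 5% of the counts above 0, was 4 in 9.S17 and 51.S20 and 3 in the other 4 libraries. Below it lay 2 values of 2 in 51.S20, neither in a gene model tested here, and none in the other 5 libraries. A level of 0 therefore stands for few or no methylated calls. These 2 libraries were the lowest of their groups in overall level, mean level and the number of methylated gene models. Each of these measures is also given with methylated counts under 4 set to 0 in all 6 libraries.

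The trio and the controls had almost the same overall methylation. The share of calls that were methylated was 0.254% in 3.S1 (Wilson 95% interval 0.238% to 0.271%), 0.324% in 7.S10 (0.305% to 0.344%) and 0.142% in 9.S17 (0.129% to 0.156%). In the trio it was 0.258% in 41.S4 (0.241% to 0.277%), 0.270% in 48.S13 (0.251% to 0.289%) and 0.188% in 51.S20 (0.174% to 0.203%). All trio libraries lay between the lowest and the highest control. The intervals cover counting error only, and rest on 437 to 1069 methylated calls per library. No rate of bisulfite conversion entered any level here, so cytosines left unconverted would count as methylated.

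The group means were 0.240% ± 0.0919 (SD, n = 3) in the controls and 0.239% ± 0.0442 (SD, n = 3) in the trio. Their difference of -0.00112 percentage points was far within the spread of either group (exact permutation test, two-sided, with all 20 splits, p = 1, where 0.1 is the smallest p that 3 against 3 allows). Differences from -0.136 to 0.128 percentage points were not rejected at the 90% level, a range wider than the SD of either group. The sign of the difference was not stable. The difference was 0.00598 without 3.S1, 0.0408 without 7.S10 and 0.0242 without 51.S20.

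**Figure D1:**
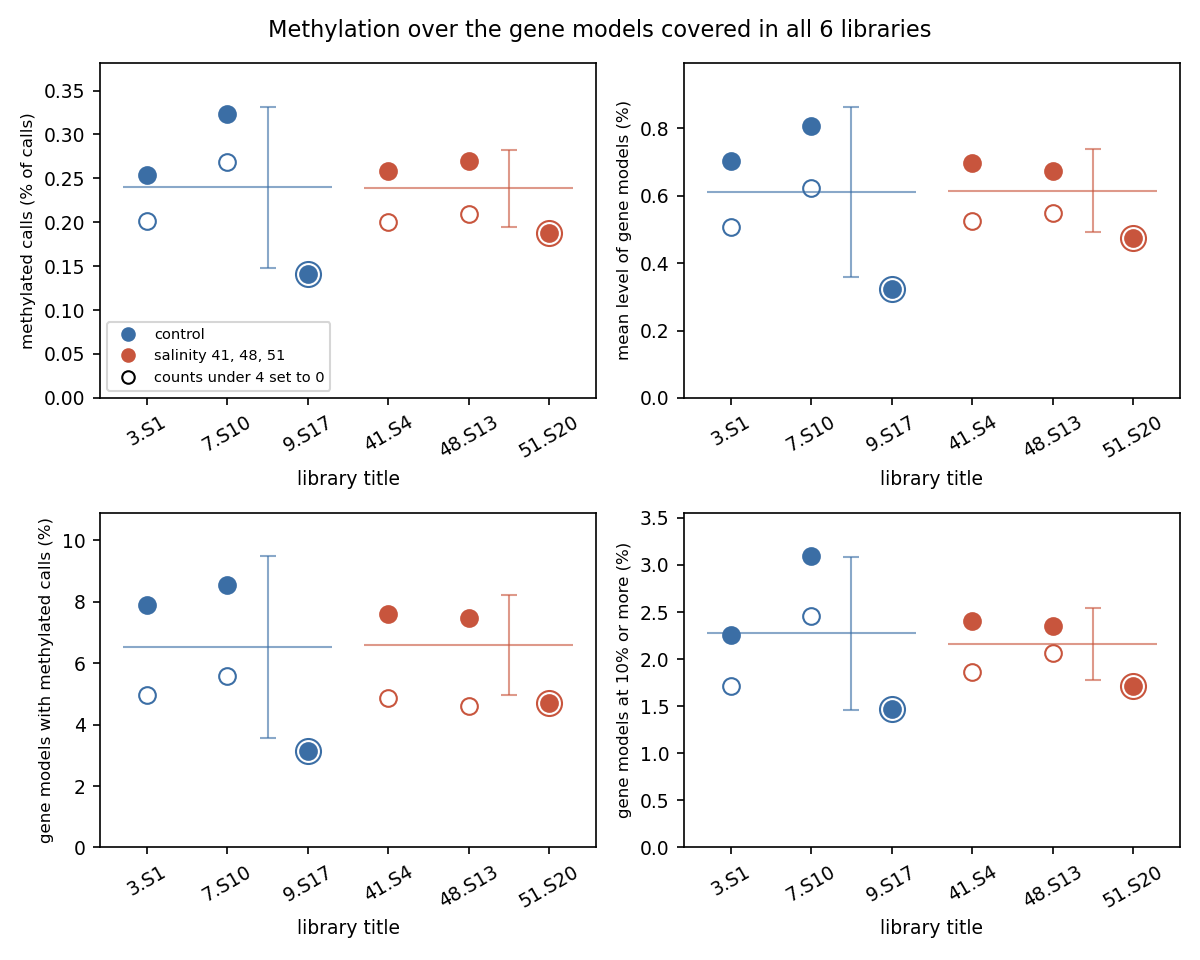
Methylation of the 6 libraries over the 2037 common gene models, with the library titles on the x axis and 4 measures on the y axes, all in percent. Filled points are values as deposited, open points the same with methylated counts under 4 set to 0 (a ring around the point where nothing changed), lines the group means and bars 1 SD of the filled points; the trio lies between 0.188% and 0.270% of calls, within the control range of 0.142% to 0.324%.

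Giving every gene model the same weight led to the same picture. The mean level was 0.703%, 0.806% and 0.325% in 3.S1, 7.S10 and 9.S17, and 0.697%, 0.675% and 0.475% in 41.S4, 48.S13 and 51.S20. The group means of 0.611% ± 0.253 and 0.615% ± 0.122 (SD, n = 3 each) differed by 0.00436 percentage points (exact permutation p = 1), with -0.331 to 0.372 not rejected at the 90% level. The difference was -0.139 without 9.S17, -0.0362 without 41.S4 and -0.0252 without 48.S13.

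Methylated calls occurred in 161, 174 and 64 of the 2037 gene models in 3.S1, 7.S10 and 9.S17, and in 155, 152 and 96 in 41.S4, 48.S13 and 51.S20. As shares these are 6.53% ± 2.95 in the controls and 6.59% ± 1.63 in the trio (SD, n = 3 each; exact permutation p = 1). The difference of 0.0655 percentage points turned to -1.63 without 9.S17, -0.442 without 41.S4 and -0.368 without 48.S13. Levels reached 10% in 46, 63 and 30 gene models of the controls and in 49, 48 and 35 of the trio (2.27% ± 0.810 and 2.16% ± 0.383, SD, n = 3 each, exact permutation p = 1). That difference of -0.115 percentage points was 0.295 without 7.S10 and 0.106 without 51.S20. Levels of 50% or more were rare, with 3 gene models in 3.S1 and 2 each in 7.S10 and 48.S13.

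The trio libraries lay close together once all libraries shared the same lowest count. With counts under 4 set to 0, methylated calls occurred in 99, 94 and 96 gene models of 41.S4, 48.S13 and 51.S20. The controls stayed apart from each other, with 101, 114 and 64. The overall level was then 0.201%, 0.210% and 0.188% in the trio and 0.202%, 0.269% and 0.142% in the controls, so that 7.S10 was above and 9.S17 below all trio libraries. As deposited, 56 of the 155 methylated gene models of 41.S4 (36.1%) and 58 of the 152 of 48.S13 (38.2%) sat at the lowest count of 3, and 41 of the 96 of 51.S20 (42.7%) at 4.

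Within the bands of S numbers the direction was mixed. The overall level of 41.S4 differed from that of 3.S1 by 0.00435 percentage points, that of 48.S13 from 7.S10 by -0.0541 and that of 51.S20 from 9.S17 by 0.0464. The last pair has a lowest count of 4 on both sides. The labels do not say what the S numbers stand for, and with 1 library of each group per band no band can be tested alone.

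Where methylation was present it was moderate in level. The median over methylated gene models was 5.63% in 41.S4, 4.92% in 48.S13 and 6.50% in 51.S20, against 5.56%, 5.86% and 8.60% in 3.S1, 7.S10 and 9.S17. The highest single levels were 48.1%, 54.5% and 39.1% in the trio and 66.7%, 76.9% and 39.1% in the controls. Levels were tied to depth in both groups. In the 272 gene models with a mean of 10 to 30 calls the mean level was 1.34% ± 0.441 in the trio and 1.75% ± 0.706 in the controls, and in the 233 with 300 or more it was 0.120% ± 0.0418 and 0.142% ± 0.119 (SD, n = 3 each). The share with methylated calls was 6.25% and 9.59% in the trio in the same classes, and 7.11% and 8.01% in the controls. With a lowest count of 3 or 4, a gene model with few calls can hold only 0 or a high level.

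Most gene models were unmethylated in all 6 libraries, and those with methylation seldom had it everywhere. No library had methylated calls in 1618 of the 2037 (79.4%). Of the 419 others, 200 (47.7%) were methylated in a single library and 106 in at least 3 of the 6, while 3 were methylated in all 6. The controls had methylated calls in 286 gene models and the trio in 309. The 176 in common were 61.5% of the first and 57.0% of the second.

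**Figure D2:**
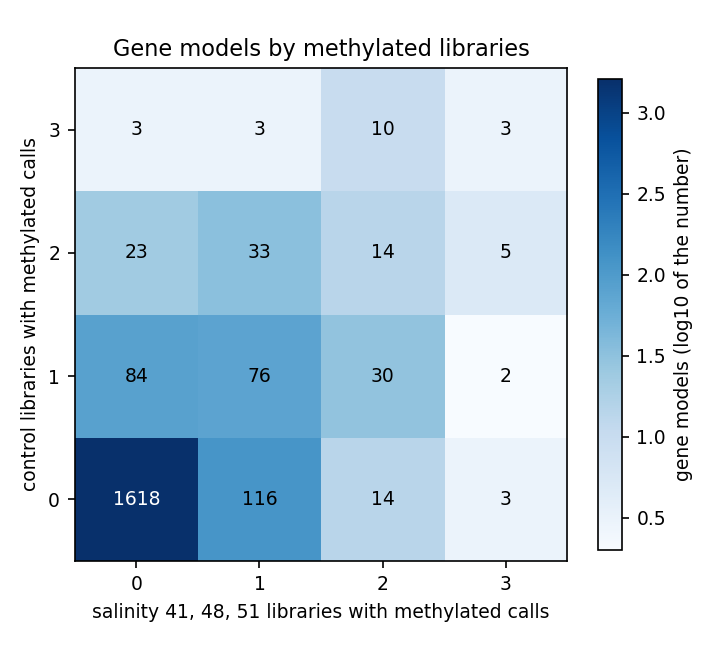
Number of gene models by how many of the 3 trio libraries (x axis) and of the 3 control libraries (y axis) had methylated calls, with the shade on a log10 scale. Of the 2037 gene models 1618 sit in the corner without methylation, and 3 sit in each of the other 3 corners.

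Gene models methylated repeatedly in either group were mostly methylated in the other. Of the 94 with methylated calls in at least 2 controls, 68 (72.3%) had them in at least 1 trio library. Of the 81 with methylated calls in at least 2 trio libraries, 64 (79.0%) had them in at least 1 control. The 26 and 17 exceptions were looked up in the 9 salinity libraries outside the comparison. The 26 gene models seen in 2 or more controls and in no trio library were methylated in 30 of 121 covered listings there (24.8%), and the 17 seen in 2 or more trio libraries and in no control in 25 of 109 (22.9%). For the 419 gene models methylated in any of the 6 libraries this share was 549 of 2352 (23.3%). That set is not a like baseline, since 200 of its gene models were methylated in a single one of the 6. The 9 salinity libraries had no part in the choice of the exceptions, and the shares were not tested against each other.

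Levels were weakly correlated between libraries, within the groups and between them. Across the 2037 gene models the Pearson correlation of levels was 0.182, 0.212 and 0.273 for the 3 pairs within the trio, 0.205 to 0.383 for the 3 pairs of controls, and 0.0820 to 0.475 for the 9 pairs between the groups. The highest of the 15 was between 7.S10 and 41.S4, which shared 69 methylated gene models (39.7% of those of 7.S10 and 44.5% of those of 41.S4). The lowest was between 9.S17 and 51.S20, which shared 12 (18.8% and 12.5%) although both have a lowest count of 4. These correlations are descriptions across gene models of shared libraries, which are not independent replicates.

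Many methylated gene models had a twin in their counts. Of the 219 methylated in at least 2 of the 6 libraries, 81 (37.0%) had exactly the same methylated counts in all 6 libraries as another gene model, which left 170 distinct patterns. Whether such gene models share calls was not tested. With many counts at the lowest value of 3 or 4, equal patterns can also arise between separate gene models.

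In the test over all gene models none passed. In a quasi-binomial regression of methylated on total calls, 0 of the 2037 (0%) passed a Benjamini-Hochberg adjusted p of 0.05, with 1 as the lowest adjusted p. The smallest unadjusted quasi-binomial p was 0.00397, at 28 methylated of 367 calls in the controls and 0 of 313 in the trio. Even with every control methylated and the trio at 0 throughout, that gene model did not pass. The adjustment also counted the 1618 gene models without a methylated call, which cannot differ. With only the 419 others, 0 passed as well. The lack of passing gene models therefore does not show that none differed. The unadjusted p was below 0.05 in 27 gene models, 17 with the lower mean in the trio (0.835% of those tested) and 10 with the higher (0.491%). In each of these 27 the group with the lower mean had no methylated call at all. Their number and balance moved with the libraries left out. It was 6 lower and 3 higher without 3.S1, 13 and 6 without 7.S10, and 17 and 3 without 9.S17. Leaving out a trio library gave 7 lower and 11 higher without 41.S4, 4 and 10 without 48.S13, and 4 and 16 without 51.S20. The excess of lower means thus stayed without any control and turned without any trio library. With the lower group at 0, leaving out one of its libraries removes unmethylated calls that such a p rests on. How much of the turn comes from this was not tested, and the turn does not tell how stable either direction is. Over all gene models with any methylated call, the trio had the higher mean in 228 and the lower in 191, with a median difference of 0.166 percentage points. Differences of 10 percentage points or more were found in 12 gene models upward and 11 downward.

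Some other tests gave more calls, and others none. With limma on logit levels 6 gene models passed (4 lower and 2 higher in the trio, adjusted p from 0.0131 to 0.0451), of which 5 were methylated in all 3 libraries of one group and in no library of the other. That test also had an unadjusted p under 0.05 at 61 gene models without a methylated call in any library, where the logit depends on the number of calls alone. Pooling the calls of each group, which ignores the spread between libraries, Fisher's exact test passed 24 (16 lower, 8 higher). The edgeR quasi-likelihood test passed 0 of 419, with 0 at an unadjusted p under 0.05.

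**Figure D3:**
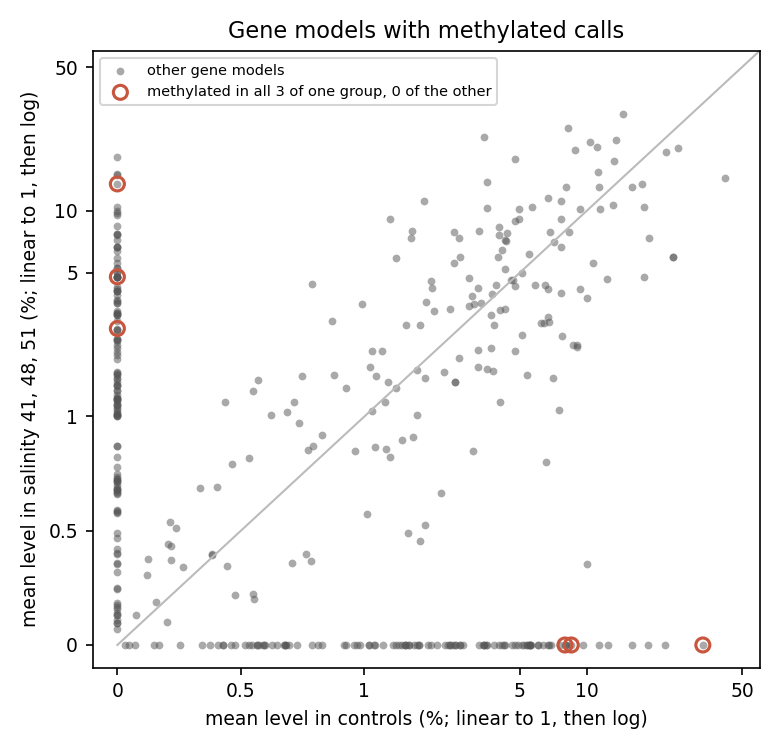
Mean level of each of the 419 gene models with any methylated call in the controls (x axis) and in the trio (y axis), in percent, linear up to 1 and logarithmic above. Points on the axes were methylated in a single group, the grey line marks equal levels, and red rings mark the 6 gene models methylated in all 3 libraries of either group and in none of the other.

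The levels of the 2 groups did not overlap at 12 gene models, 7 with every trio library lower (0.344% of the 2037) and 5 with every trio library higher (0.245%). Only the 106 gene models with methylated calls in at least 3 of the 6 libraries could show this, so the shares of the 2037 understate how common it was. These 12 held 11 distinct sets of methylated counts. For 6 of the 12 the lower group was at 0 throughout, 3 in each direction. All of them had an adjusted p of 1, and for a single gene model the exact permutation test cannot go below p = 0.1.

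The first 2 of these gene models were methylated in the trio and not in the controls. Dapma7bEVm015186t1 had 9 methylated of 225 calls in 41.S4 (4.00%), 6 of 244 in 48.S13 (2.46%) and 5 of 318 in 51.S20 (1.57%), against 0 of 316, 0 of 233 and 0 of 260 in 3.S1, 7.S10 and 9.S17. Its trio mean was 2.68% ± 1.23 (SD, n = 3; unadjusted quasi-binomial p = 0.00592, exact permutation p = 0.1). Of the 3 other salinity libraries that covered it, 1 was methylated, at 6 of 249 calls in 11.S2. Dapma7bEVm004576t1 had 5 of 144, 6 of 145 and 8 of 119 methylated calls in 41.S4, 48.S13 and 51.S20 (3.47%, 4.14% and 6.72%), and 0 of 155, 0 of 143 and 0 of 95 in the controls. Its trio mean was 4.78% ± 1.72 (SD, n = 3; unadjusted quasi-binomial p = 0.00695, exact permutation p = 0.1). It was unmethylated in all 3 other salinity libraries that covered it, with 58 to 129 calls.

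The last of the 3 with methylated calls in every trio library and in no control lies outside the naming rule and was chosen after its values were seen. It had 6 of 29, 3 of 54 and 5 of 35 methylated calls in 41.S4, 48.S13 and 51.S20 (20.7%, 5.56% and 14.3%), and 0 of 39, 0 of 38 and 0 of 45 in the controls. Its difference of 13.5 percentage points was the largest of the 3 (unadjusted quasi-binomial p = 0.0123). With counts under 4 set to 0 it was 11.7 points, and 48.S13 was no longer methylated. Of 8 other salinity libraries that covered it, 1 was methylated, 11.S2 with 3 of 20 calls.

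Another 2 gene models went the other way by the same rule of the smallest p. Dapma7bEVm002614t1 had 11 of 123, 7 of 146 and 10 of 98 methylated calls in 3.S1, 7.S10 and 9.S17 (8.94%, 4.79% and 10.2%), and 0 of 89, 0 of 104 and 0 of 120 in 41.S4, 48.S13 and 51.S20. The control mean was 7.98% ± 2.83 (SD, n = 3; unadjusted quasi-binomial p = 0.00397, the smallest of the 2037, exact permutation p = 0.1). Among the 3 other salinity libraries that covered it, 2 were methylated, at 2.83% in 11.S2 and 5.77% in 38.S19, and 54.S14 was at 0. Dapma7bEVm030670t1 had the largest difference of all 2037 means, on few calls. It had 4 of 10, 4 of 14 and 5 of 16 methylated calls in the controls (40.0%, 28.6% and 31.2%) and 0 of 15, 0 of 15 and 0 of 14 in the trio. The control mean was 33.3% ± 5.98 (SD, n = 3; unadjusted quasi-binomial p = 0.00942, exact permutation p = 0.1). Of 6 other salinity libraries that covered it, 5 were at 0, and 36.S12 had 4 of 17. One more gene model with methylated calls in every control and in no trio library had a control mean of 8.52% ± 2.08 (SD, n = 3; unadjusted quasi-binomial p = 0.0144, exact permutation p = 0.1), and was methylated in 3 of the 9 other salinity libraries. Its methylated counts were 3 of 39, 3 of 43 and 11 of 101 calls in 3.S1, 7.S10 and 9.S17. With counts under 4 set to 0 only 9.S17 kept any, and the difference moved from -8.52 to -3.63 percentage points.

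**Figure D4:**
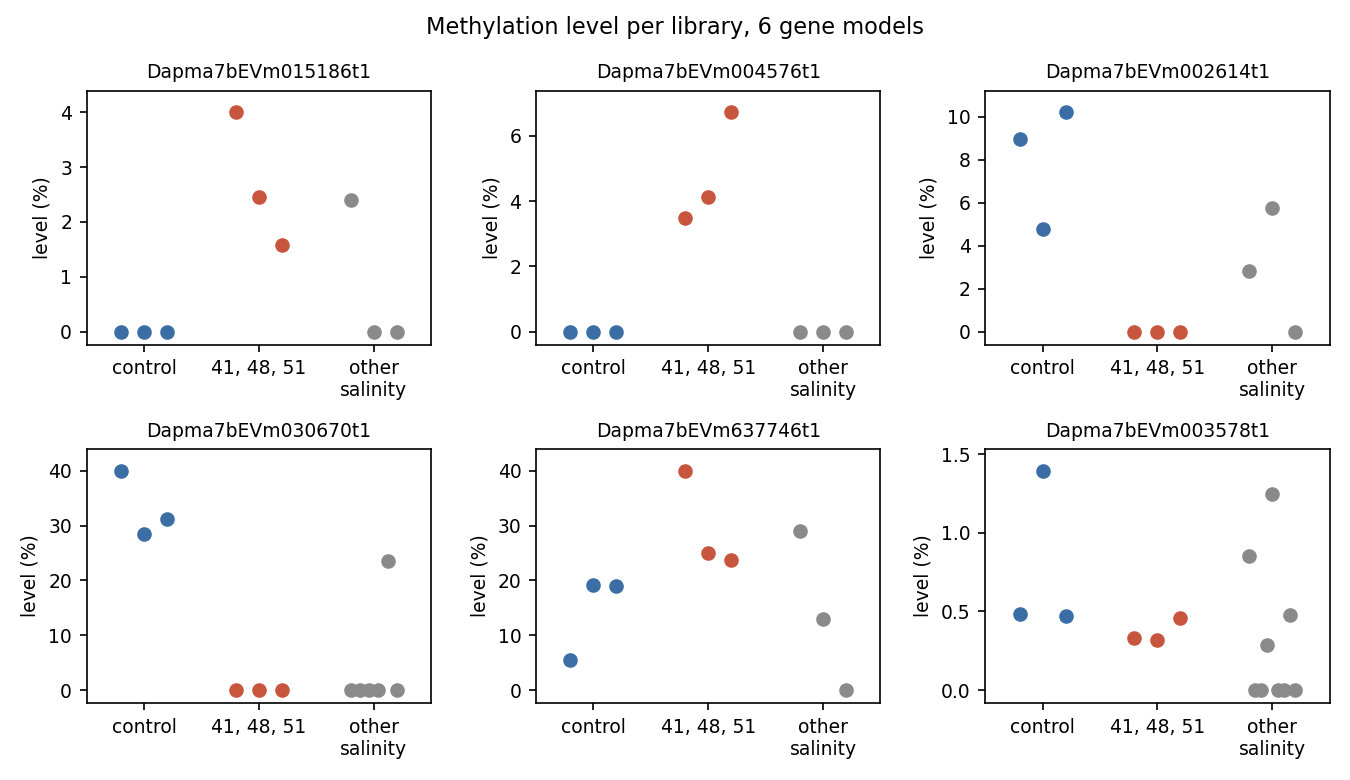
Methylation level in percent (y axis) of 6 gene models in each library with at least 10 calls, for the controls, the trio and the other salinity libraries (x axis), with 1 point per library. In the first 4 panels either the controls or the trio are at 0 in all 3 libraries, and Dapma7bEVm637746t1 and Dapma7bEVm003578t1 were methylated in all 6 libraries of the comparison.

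There were 3 gene models with methylated calls in every library of the comparison. Dapma7bEVm637746t1 stood at 40.0% (6 of 15 calls), 25.0% (9 of 36) and 23.7% (9 of 38) in 41.S4, 48.S13 and 51.S20, and at 5.45% (3 of 55), 19.2% (15 of 78) and 19.05% (4 of 21) in 3.S1, 7.S10 and 9.S17. The groups did not overlap, with means of 29.6% ± 9.06 and 14.6% ± 7.90 (SD, n = 3 each), but the test over all gene models did not separate them (unadjusted quasi-binomial p = 0.145, exact permutation p = 0.1). Dapma7bEVm011177t1 had the same methylated counts in each of the 6 libraries, with means of 21.98% ± 2.66 in the trio and 13.5% ± 7.16 in the controls (SD, n = 3 each). Its groups did not overlap either. The pair may not be 2 separate cases, but both enter the counts of gene models above, the 12 without overlap included. Outside the comparison, 3 salinity libraries covered both. They stood at 29.0% and 21.95% in 11.S2, at 13.04% and 10.3% in 38.S19, and at 0 in 54.S14. The difference of 14.98 percentage points in Dapma7bEVm637746t1 was 9.76 without 41.S4, and that of 8.43 in Dapma7bEVm011177t1 was 4.39 without 3.S1.

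The third, Dapma7bEVm003578t1, had 904 to 1094 calls per library and a low level in all of them. It had 0.332%, 0.315% and 0.457% in 41.S4, 48.S13 and 51.S20, from 3 of 904, 3 of 952 and 5 of 1094 calls, and 0.485%, 1.39% and 0.473% in 3.S1, 7.S10 and 9.S17, from 5 of 1030, 13 of 933 and 5 of 1057 calls. The group means of 0.368% ± 0.0776 and 0.784% ± 0.528 (SD, n = 3 each) had a difference, trio minus control, of -0.416 percentage points, and of -0.111 without 7.S10. Every trio library was below every control, by a narrow gap, and the test over all gene models did not separate them (unadjusted quasi-binomial p = 0.214, exact permutation p = 0.1). Methylated calls occurred in 4 of the 9 other salinity libraries.

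A list of recurrently methylated gene models was drawn from the 9 salinity libraries outside the comparison, so that no methylated count of the 6 libraries entered its choice. It held the 30 of the 2037 gene models that at least 4 of the 9 covered and at least 50% of the covering libraries had methylated. Of these 30, 22 were methylated in 41.S4, 12 in 48.S13 and 10 in 51.S20, against 20, 21 and 5 in 3.S1, 7.S10 and 9.S17. Outside the list, 6.63%, 6.98% and 4.28% of the 2007 other gene models were methylated in the trio libraries, and 7.03%, 7.62% and 2.94% in 3.S1, 7.S10 and 9.S17. In each of the 6 libraries the share methylated was higher on the list than outside it, from 16.7% in 9.S17 to 73.3% in 41.S4.

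The mean level over the 30 was 11.6%, 7.05% and 5.67% in 41.S4, 48.S13 and 51.S20, and 7.45%, 11.8% and 1.17% in 3.S1, 7.S10 and 9.S17. The group means were 8.11% ± 3.11 in the trio and 6.81% ± 5.34 in the controls (SD, n = 3 each, exact permutation p = 1). The difference of 1.31 percentage points was -1.51 without 9.S17 and -0.447 without 41.S4. The trio had the higher mean in 17 of the 30 and the lower in 13, close to the 54.4% with the higher mean among all 419 gene models with methylated calls. Methylated calls were absent from the whole trio in 1 of the 30 and from all controls in 4. The list was drawn from salinity libraries alone. A gene model methylated in them and not in controls could enter it, and the reverse could not. These counts and differences are therefore not a balanced comparison of the groups. With 1 of each set with the same methylated counts, 25 of the 30 remained, with a difference of 1.19.

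On its own, the trio covered more gene models than the comparison could use. Of 6630 gene models with 10 or more calls in 41.S4, 48.S13 and 51.S20, 775 were methylated in 1 of the 3, 269 in 2 and 75 in all 3, together 16.9%. The controls covered 6022 in all 3 libraries, with 653, 254 and 69 methylated in 1, 2 and 3 (16.2%). The mean level of the 75 ran from 0.0428% to 48.9%, with a median of 7.85%. There were 18 below 1%, with a median of 17556 calls over the 3 libraries, and 27 at 10% or more. Whether levels as low as those of the 18 exceed what incomplete bisulfite conversion gives was not tested. At least 1 control covered 73 of the 75, and 54 of these were methylated in a control. All 75 were covered by at least 1 of the 9 other salinity libraries, and 67 were methylated in at least 1 of them. With 9 such libraries against 3 controls, the counts of 67 and 54 cannot be compared.

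The 4 highest of the 75 were Dapma7bEVm637746t1 and 3 others, all picked here after their values were seen. Dapma7bEVm007750t1 was at 45.5%, 53.8% and 47.4% in 41.S4, 48.S13 and 51.S20, on 11, 13 and 19 calls. No control covered it with 10 calls, and 3 of 4 other salinity libraries had 40.0% to 60.9%. Dapma7bEVm629786t1 was at 33.3%, 30.8% and 19.05% in the trio, and at 45.5% in 3.S1 and 25.0% in 7.S10, the controls that covered it. Dapma7bEVm004363t1 had the widest range of these 4 within the trio, from 10% in 41.S4 over 26.5% in 48.S13 to 39.1% in 51.S20, and was at 10.3%, 14.3% and 0 in 3.S1, 7.S10 and 9.S17.

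The number of gene models listed was 14113, 18896 and 14904 in 41.S4, 48.S13 and 51.S20 and 15803, 14631 and 13647 in 3.S1, 7.S10 and 9.S17. The means of 15971 ± 2564 and 14694 ± 1079 (SD, n = 3 each) differed by 1277 (exact permutation p = 0.6), and by -185 without 48.S13. Missing gene models were shared by sets of libraries that cut across the groups. The most common pattern, 3263 gene models, was a listing in the 3 controls and 48.S13 but not in 41.S4 and 51.S20, and the next, 3003, a listing in the trio and 3.S1 but not in 7.S10 and 9.S17. The trio listed 465 gene models that no control listed, and the controls 795 that no trio library listed.

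The other salinity libraries spanned the values of the trio. Over the 810 gene models with 10 or more calls in all 15 libraries, the overall level was 0.235%, 0.261% and 0.248% in 41.S4, 48.S13 and 51.S20, a mean of 0.248% ± 0.0127 (SD, n = 3). The 9 other salinity libraries ran from 0.139% over a median of 0.226% to 0.312% (mean 0.228% ± 0.0596, SD, n = 9), and the controls averaged 0.220% ± 0.0694 (SD, n = 3). The trio exceeded the 9 by 0.0199 percentage points (exact permutation test, two-sided, with all 220 splits, p = 0.614). Without 54.S14 and 55.S21, which like 51.S20 have few methylated counts under 4, the difference was -0.00430. That setting kept 51.S20 in the trio. With counts under 4 set to 0 in all 15 libraries the difference was 0.0250 (exact permutation p = 0.386). The mean level (0.501% against 0.422%, exact permutation p = 0.45) and the share with methylated calls (5.68% against 5.09%, exact permutation p = 0.668) did not separate them. Without the same 2 libraries the difference in share turned from 0.590 to -0.300 percentage points. With counts under 4 set to 0 in all 15 libraries it was 0.905 (exact permutation p = 0.336). The difference in mean level was then 0.0978 (exact permutation p = 0.245).

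**Figure D5:**
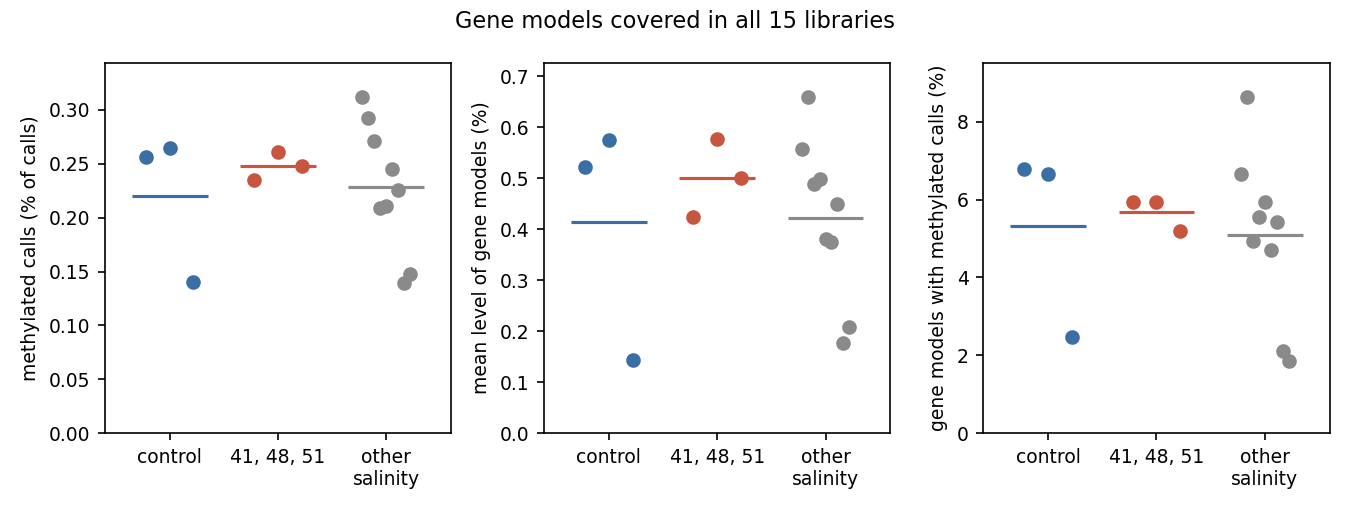
Overall level, mean level and share of gene models with methylated calls (y axes, percent) over the 810 gene models covered in all 15 libraries, for the controls, the trio and the 9 other salinity libraries (x axis). Each point is a library and each line a group mean; the trio lies within the range of the 9 other salinity libraries in all 3 panels.

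The labels do not tie libraries to cultures or animals, so each p-value reflects only how these libraries vary, which may in part be technical or shared within a culture.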

How the data were processed

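The submitters' processing notes name Bismark 0.18.1, FastQC and Trim Galore 0.4.4. How calls were made and summed, in which cytosine context and on which genome build, is not given in the sources used here. Raw counts of calls per gene model were deposited by the authors without normalization. The columns were read as total and methylated calls from their names, N and X, and their values, since no source states it. Methylated calls were handled as estimated counts because 27 of the deposited values over the 15 libraries lay off a whole number, by 1.07e-14 at most, and were rounded. Matching the 25092 identifiers to a reference table of 28335 genes gave 0 hits, so the gene lists planned could not be used and no sequence is printed. Apart from that, a gene model that the naming rule picked as the third lower in the trio is given without its identifier.

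Library values were compared with two-sided exact permutation tests. Intervals at 90% were made by inverting them. Each gene model was tested by quasi-binomial logistic regression (Python 3.11.15, SciPy 1.17.1; F test on the deviance, Pearson dispersion of at least 1, Benjamini-Hochberg adjustment at 0.05). It was also run on simulated data, which unlike these libraries had no lowest methylated count, so they do not show its power here. Limma 3.58.1 and edgeR 4.0.16 in R 4.3.3 served as alternatives. No 2 libraries were identical (0 pairs). Of the gene models tested, 51 in 23 groups had identical counts. The gene models named are the 2 with the smallest p in each direction, those methylated in all 6 libraries (5 at most, by mean level), and those with most methylated calls among gene models methylated in every library of either group alone. The libraries, lists and rules were chosen with earlier results of these data known.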

Additional observations from a re-analysis of the deposited data

Results flagged for a closer look

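The level of Dapma7bEVm030670t1 in the 6 salinity libraries outside the comparison that covered it was 0 in 5 and 23.5% in 36.S12, a single library far from the others. Chance alone sets a sample apart by the gap used in about 1 in 20 groups, and a gene model with methylated calls in 1 library of a group always meets it.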

How the results depend on the processing

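The smallest exact permutation p of the trio against the controls, in level or listing, was 0.3 over all settings, and several signs changed. The smallest possible p differs between settings. Without 9.S17 and 51.S20 the exact permutation p was 0.333 for the mean level and for the share with methylated calls, the lowest that so few libraries allow. In these measures both remaining trio libraries lay below both remaining controls, and in the other levels the groups overlapped. The overall difference (-0.00112 percentage points) was 0.00704 with at least 5 calls, 0.0279 over the gene models covered in all 15 libraries, 0.000521 with 1 of each set with identical counts and 0.00721 with 1 of each set with the same methylated counts. The mean level (0.00436) was -0.000501 with at least 20 calls, -0.0688 without 9.S17 and 51.S20, -0.0312 with each library's own covered gene models, -0.00606 without gene models at more than 1 position and -0.0179 without those whose calls differed over 5 times. The share with methylated calls (0.0655) was -0.0837 with at least 20 calls and -0.687 without 9.S17 and 51.S20. The share at 10% or more (-0.115) was 0.0564 with at least 5 calls, 0.329 over the gene models covered in all 15 and 0 with 1 of each set with the same methylated counts. The level over the list of 30 (1.31) was -0.169 with at least 20 calls, -0.289 without 9.S17 and 51.S20, and -2.28 for a list at 80%. The trio minus the 9 others turned to -0.00430 (overall) and -0.300 (share) without 54.S14 and 55.S21, with 51.S20 kept in the trio. With counts under 4 set to 0 in all 15 libraries these differences were 0.0250 and 0.905. The cause was not tested for any of these.

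With single libraries left out in turn, the differences ran over -0.0502 to 0.0408 (overall), -0.139 to 0.102 (mean level), -1.63 to 1.07 (share), -0.515 to 0.295 (share at 10%), -1.51 to 3.80 (list of 30) and -185 to 2206 (listed gene models). The gene model test called 0 in every setting except limma (6) and Fisher's exact test (24). The labels give no replicate numbers. Pairing by the bands of S numbers left the exact p at 1 for all levels, and the bands as a block gave 0 calls, with 19 at an unadjusted p under 0.05. The settings on positions, shared methylated counts and differing calls were chosen after seeing the data.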

Other observations

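The number of calls of a gene model differed between the 6 libraries by a median factor of 2.09 from the lowest to the highest. It differed by more than 5 times at 121 of the 2037, and 50 of these were among the 116 listed at more than 1 position across the 6 libraries. The widest was Dapma7bEVm018696t1, named after its values were seen, with 7774, 7527, 7337 and 6687 calls in 3.S1, 7.S10, 9.S17 and 41.S4, against 30 in 48.S13 and 25 in 51.S20. It had 21, 25, 0 and 20 methylated calls in the first 4 and 0 in the other 2, so that 2 of the 3 trio libraries were hardly read where 41.S4 and the controls were read deeply.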
